A study of Mus musculus with 4 samples.

Results

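The genotype-dependent part of the calcium response is the change that added calcium made in Pla2g2f-/- keratinocytes minus the change it made in Pla2g2f+/+ keratinocytes. It was computed for each of 19235 genes whose probe was well above background on all 4 arrays, of 30340 genes and targets on the array (63.4%). The value is called the response difference here and is given on the log2 scale, so that 1 unit is 2-fold, -/- minus +/+. The cells were primary keratinocytes, the epithelial cells of the epidermis, freed with 0.05% collagenase A from the skin of newborn C57BL/6 mice of either genotype and grown for 3 days. They were then kept for 48 h with 1 mM CaCl2 or without it, and the groups were Pla2g2f+/+ Control, Pla2g2f+/+ CaCl2, Pla2g2f-/- Control and Pla2g2f-/- CaCl2. Each group was 1 pool of RNA from 6 mice on one 1-colour array, so differences carry neither a replicate check nor a p-value, and the genotype cannot be told apart from the cell preparation. The number of arrays limits the precision. Levels are log2 signal relative to the 75th percentile of the same array.

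A rise in extracellular calcium makes cultured keratinocytes leave the cell cycle, join through desmosomes and tight junctions, and begin terminal differentiation. In the last steps a cornified envelope is built under the plasma membrane: transglutaminases cross-link loricrin, small proline-rich (Sprr) and late cornified envelope (Lce) proteins to a scaffold, and kallikrein proteases later cut the links between dead cells. Genes for loricrin, the Sprr and Lce families and many S100 proteins lie side by side in the epidermal differentiation complex, on chromosome 3 in the mouse. Pla2g2f encodes a secreted phospholipase A2 that frees fatty acids and lysophospholipids and is known from the upper epidermis.

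All 12 keratinocyte markers were well above background on every array, and their summed level was 490, 496, 403 and 359 times the 75th percentile signal in +/+ cells without and with calcium and in -/- cells without and with calcium. That order of the 4 arrays is kept in what follows. Between 67.0% and 68.6% of probes were well above background on an array. The Pla2g2f probe (chromosome 4, 138306448 to 138306507, mm9) gave levels of -3.35, -3.04, -3.78 and -3.53 and a response difference of -0.06. The labels do not say which part was deleted, so this probe checks nothing about the genotypes. The scanner's own error model gave the response difference of the median gene an error of 0.29, and the response difference over all measured genes had a median of 0.02 and an SD of 0.36.

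Calcium raised the late cornified envelope genes far less in -/- than in +/+ cells, and the same was true of most Sprr2 genes. In the other direction lay most macrophage markers, the CC chemokines Ccl3, Ccl6, Ccl8 and Ccl9 and the regenerating lectins Reg1 and Reg3g, while the neutrophil chemokines Cxcl1 and Cxcl5 lay below 0. Measured kallikreins, and most measured junction and envelope scaffold genes, had responses within 2-fold of each other. Members too dim on any array are not in these counts, and some of those were higher in -/- cells with calcium. The response difference was at least 2-fold above 0 for 367 genes (1.91% of those measured) and at least 2-fold below 0 for 121 (0.629%). Of 391 genes at least 2-fold higher with calcium in +/+ cells (2.03%), 248 were also at least 2-fold higher in -/- cells and 80 (20.5%) had a response difference at least 2-fold below 0. The 60 genes with a +/+ response of at least 8-fold, chosen for being high there, held 32 of those 80. Choosing genes by a high +/+ response favours values below 0, since that response is subtracted. The mirror choice gave a like share. Of 384 genes at least 2-fold higher with calcium in -/- cells, 79 (20.6%) had a response difference at least 2-fold above 0. Of the 248 genes higher in both genotypes, 200 had responses within 2-fold of each other.

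**Figure D1:**
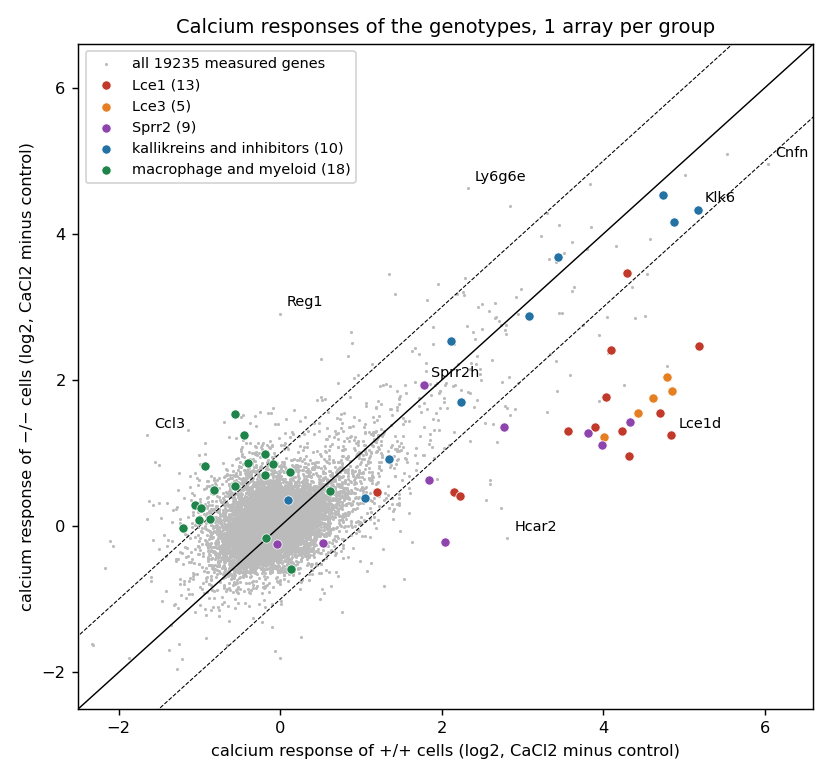
Calcium response of -/- cells (vertical axis, log2) against that of +/+ cells (horizontal axis, log2) for 19235 genes, each point 1 gene on 1 array per group, with 5 gene lists coloured. The solid line marks equal responses and the dashed lines a 2-fold response difference; 11 of 13 Lce1 genes and 5 of 5 Lce3 genes lie below the lower dashed line, and 11 of 18 macrophage and myeloid markers above the upper one.

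The sequences before the start of 4 genes are shown, 1 for each of the Lce1, Lce3 and Sprr2 families and Reg1, the gene with the highest response difference. Lce1d has the lowest value of all measured genes, and Lce3c and Sprr2e the lowest of their families. Each run is the 250 bases upstream of the RefSeq start (GRCm38.p6), written 5' to 3' along the gene's strand. Capitals mark the AP-1 site TGANTCA, bound by Fos and Jun proteins, and the TATA box TATAAA, each searched on both strands, and the marked sites do not overlap.
Lce1d: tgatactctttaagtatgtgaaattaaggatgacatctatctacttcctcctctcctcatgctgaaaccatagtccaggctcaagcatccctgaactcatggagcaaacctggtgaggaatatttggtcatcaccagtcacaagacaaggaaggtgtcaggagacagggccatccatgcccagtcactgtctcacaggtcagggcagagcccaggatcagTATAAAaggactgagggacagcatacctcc
Lce3c: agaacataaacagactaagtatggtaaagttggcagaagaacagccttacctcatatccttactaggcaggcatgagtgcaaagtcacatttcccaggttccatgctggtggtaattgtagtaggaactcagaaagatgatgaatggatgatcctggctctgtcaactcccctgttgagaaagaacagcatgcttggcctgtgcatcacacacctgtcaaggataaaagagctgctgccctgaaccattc
Sprr2e: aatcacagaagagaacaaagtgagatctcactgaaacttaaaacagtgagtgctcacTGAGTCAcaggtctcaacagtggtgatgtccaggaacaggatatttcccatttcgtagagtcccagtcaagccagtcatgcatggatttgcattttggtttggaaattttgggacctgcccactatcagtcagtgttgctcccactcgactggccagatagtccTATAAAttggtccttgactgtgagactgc
Reg1: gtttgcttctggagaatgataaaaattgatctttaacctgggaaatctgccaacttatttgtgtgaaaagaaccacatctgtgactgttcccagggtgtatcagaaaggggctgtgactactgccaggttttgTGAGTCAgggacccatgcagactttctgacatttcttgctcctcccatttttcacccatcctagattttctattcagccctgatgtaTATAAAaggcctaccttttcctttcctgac
These are chr3:92687211-92687460 on the minus strand, chr3:92944236-92944485 on the plus strand, chr3:92351893-92352142 on the plus strand and chr6:78425733-78425982 on the plus strand. Lce1d holds a TATA box that begins 30 bases before the start and no AP-1 site, Lce3c neither of these letters, Sprr2e an AP-1 site at 193 and a TATA box at 29 bases, and Reg1 an AP-1 site at 117 and a TATA box at 30 bases.

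Among measured members with an upstream sequence in the table, the AP-1 letters stood in 6 of 7 Sprr2 genes, in 0 of 12 Lce1 genes and in 0 of 5 Lce3 genes, against 6.87% of 27025 promoters of all genes and 4.83% of the 12098 measured genes that have one. The 6 Sprr2 genes with the site include Sprr2e, with a response difference of -2.89, and Sprr2h, with 0.16. The TATA box stood in 6 of 7 Sprr2, 2 of 12 Lce1 and 0 of 5 Lce3 genes, against 13% of all promoters. Of genes with a response difference at least 2-fold below 0, 14 of 75 held the AP-1 letters (18.7%), of genes at least 2-fold above 0, 26 of 223 (11.7%), and of 127 genes at least 2-fold higher with calcium in both genotypes and within 2-fold of each other, 21 (16.5%). Outside the Sprr2 family it was 10 of 71 genes below 0 (14.1%). Family members share sequence and are not independent, a match is only a match of letters, and no match says only that these letters are absent from the window. Of 8 measured scaffold genes 4 held the AP-1 letters, and of 8 kallikreins and inhibitors 0 did. In all 7 motifs were searched. The C/EBP letters TTNNGNAA were in 5 of 5 Lce3, 6 of 7 Sprr2 and 1 of 12 Lce1 windows, against 36.9% of all promoters. The KLF letters CCACCC were in 0, 1 and 1 of them (27.7% of all promoters), and the letters AACCNGTT (GRHL), CCGGAA (ETS) and the NF-kB motif in none (1.71%, 12.2% and 0.337% of all promoters).

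Lce1 proteins are late envelope proteins of normal surface epidermis. All 13 measured Lce1 genes were at least 2-fold higher with calcium in +/+ cells, with a median of 4.10 (17.1-fold), and 9 were in -/- cells, with a median of 1.31 (2.48-fold; 2% of all measured genes). Every response difference was below 0, from -3.59 to -0.73, with a median of -2.27, and 11 of the 13 were at least 2-fold below 0. Lce1d, the gene with the lowest value of all measured genes, had levels of -3.10 and 1.75 in +/+ cells and -1.44 and -0.19 in -/- cells. Its response was 4.84 in +/+ and 1.25 in -/- cells, a response difference of -3.59 (12.1-fold; scanner error 0.29). The -/- levels thus lie between the +/+ levels, higher than +/+ without calcium and lower with it. Lce1e had levels of -4.15, 0.16, -2.26 and -1.30 and a response difference of -3.36, and Lce1a1 -3.09, 1.61, -1.11 and 0.44 and -3.15.

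That crossing ran through the Lce1 list: without calcium 11 of 13 members were higher in -/- cells, 6 of them at least 2-fold (4.13% of all measured genes were), with a median of 0.85. With calcium 0 of 13 were higher and 9 were at least 2-fold lower (2.55% of all measured genes were), with a median of -1.24. The summed level of the 13 genes was 2.79, 25.3, 4.02 and 10.5 on the 4 arrays. On this linear scale, too, all 13 gained less with calcium in -/- cells. Lce1b was printed on 10 spots of each array, and its response difference over the spots was -2.93 ± 0.13 (SD over 10 spots, a technical spread within the arrays), with a range of -3.17 to -2.72. The members that differed least were Lce1m, with levels of -2.65, 1.64, -2.78 and 0.69 (response difference -0.82), and Lce1a2, with 0.70, 1.90, 0.52 and 0.98 (-0.73). Lce1a2 was read from a probe that the files assign to 2 transcripts, and its other probe gave -1.97, so that the mean of both was -1.35. The Lce1c probe is assigned to 3 transcripts, and its other probe gave -2.91 against -2.25. With normexp background correction the Lce1 median was -1.97.

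Lce3 genes encode the envelope proteins known to be induced in injured and psoriatic skin. All 5 measured members were at least 2-fold higher with calcium in both genotypes, with medians of 4.62 (24.6-fold) in +/+ and 1.75 (3.37-fold) in -/- cells. The response differences lay close together, from -3.0 (Lce3c) to -2.74 (Lce3a). Lce3c had levels of -1.26, 3.59, -0.34 and 1.5 and Lce3d of -0.74, 3.69, 0.02 and 1.56. Both were slightly higher in -/- than in +/+ cells without calcium and more than 4-fold lower with it. Lce3a, with levels of -5.31, -0.53, -5.58 and -3.54, and Lce3f, with -4.53, -0.52, -4.61 and -3.39, were slightly lower in -/- cells already without calcium. The summed level of the list was 1.38, 33.8, 2.38 and 7.62.

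The Lce3 values do not count as 5 separate readings, because the probes of Lce3b and Lce3c are nearly the same sequence. The first 30 bases of each probe are shown for that comparison, with the base in Lce3c that differs in capitals.
Lce3b: tcaagaaaagcccagctagtcttgttttgt
Lce3c: tcaagaaaagcccagctagtcttgttttAt
Over the whole probe 54 of 60 positions were the same, with a shared run of 28 bases. Other probes overlap by less, so members of the Lce1 and Sprr2 families are not fully separate readings either. At best alignment without gaps Lce1d and Lce1i match at 46 of 60 positions and Sprr2g and Sprr2i at 39. Lce3b and Lce3d share a run of 22 bases. The effect of these overlaps on the values was not tested. Lce3b had levels of -1.84, 2.78, -1.12 and 0.63 and a response difference of -2.87, against -3.0 for Lce3c. Lce3e was not well above background in +/+ cells without calcium and so is no member. Its response was at least 29.2-fold in +/+ and 2.04-fold in -/- cells, with levels of -0.66 and -3.21 in calcium-treated +/+ and -/- cells.

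**Figure D2:**
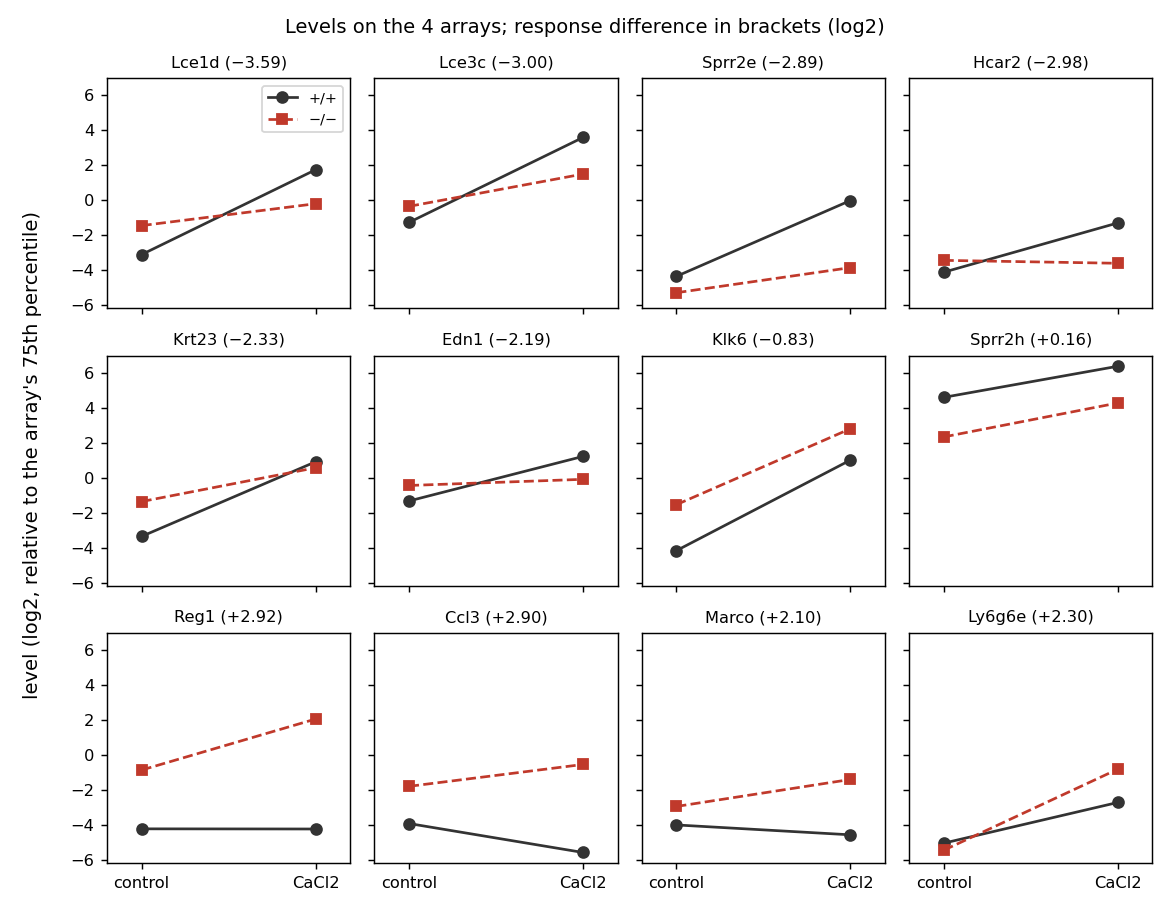
Level of 12 genes (log2, with the 75th percentile of each array at 0) without and with calcium in +/+ cells (circles) and -/- cells (squares), 1 array per point, with the response difference in brackets. The lines of Lce1d, Lce3c, Hcar2, Krt23 and Edn1 cross, and those of Sprr2e, Reg1, Ccl3 and Marco move apart. Those of Klk6 draw closer with calcium, and those of Sprr2h run nearly side by side.

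Sprr2 proteins are short, flexible bridges of the envelope. Sprr2 genes differed from the Lce families in their untreated level, read from each gene's brightest probe. All 9 measured Sprr2 genes were lower in -/- cells without calcium (median -0.94) and all 9 with calcium (median -3.02). Of all measured genes, 30.8% and 34.4% were higher in -/- cells. Sprr2a2 was lower by only -0.06 without calcium. Its other 2 probes were higher in -/- than in +/+ cells there, at 4.61 against 4.13 and -3.93 against -4.18. Sprr2e had levels of -4.34, -0.01, -5.27 and -3.84 and a response difference of -2.89. Sprr2g went from -0.13 to 3.86 in +/+ cells and from -0.44 to 0.67 in -/- cells, a response difference of -2.88. Sprr2k rose in +/+ cells only, from -2.61 to -0.57, and stood at -3.37 and -3.59 in -/- cells. In all, 6 of 9 were at least 2-fold below 0, and the list median was -1.42.

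The brightest Sprr2 members did not share that difference. Sprr2h had levels of 4.59, 6.36, 2.33 and 4.27, so that calcium raised it 3.42-fold in +/+ and 3.83-fold in -/- cells while it stayed over 4-fold lower in -/- cells on both arrays. Sprr2a2 was level, at 5.85, 5.81, 5.80 and 5.56. Its probe is assigned to 2 transcripts, and its other 2 probes had responses of 1.26 in +/+ cells and of 0.77 and 0.80 in -/- cells. Among Sprr2 genes above the median level of all measured genes, which include Sprr2g, Sprr2h and Sprr2a2, the median response difference was -0.20. Sprr2a1 and Sprr2b were not well above background on any array.

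Other envelope proteins followed in part. Of 12 measured scaffold genes outside these families, 4 were at least 2-fold below 0 and 0 above. Kprp, a proline-rich envelope protein, had levels of -3.24, 1.55, -2.09 and 0.10 (response difference -2.59). Loricrin (Lor), the most abundant envelope protein of skin, had -1.35, 2.71, -1.01 and 1.36 (-1.68), and cornifelin (Cnfn) -2.82, 3.22, -2.91 and 2.05 (-1.09). Krtdap, a secreted protein of differentiating keratinocytes, reached nearly the same level with calcium in both genotypes, 2.80 and 2.61, from -1.71 in +/+ and -0.26 in -/- cells (-1.64). The remaining 8, from Sbsn at -0.77 to envoplakin (Evpl) at 0.42, had response differences within 2-fold, and corneodesmosin (Cdsn), which glues corneocytes together, rose 10.1-fold in +/+ and 12.7-fold in -/- cells. With quantile scaling Cnfn was just within 2-fold (-0.96). Scel was not well above background in +/+ cells without calcium, so it has no response difference. It rose at least 30.8-fold in +/+ and 39.2-fold in -/- cells. With calcium it was 3.33-fold higher in -/- cells.

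Of the enzymes that join and trim envelope proteins, transglutaminase 1 (Tgm1) had levels of -3.72, 0.64, -3.75 and -0.47, equal without calcium and lower in -/- cells with it, a response difference of -1.08. The filaggrin protease Asprv1 was higher in -/- cells without calcium and close to +/+ cells with it, at 0.41, 4.36, 1.56 and 4.18 (-1.34). The peptidylarginine deiminase Padi4 lay on the other side, at -3.94, -4.15, -3.77 and -2.64 (1.35). The list of 12 had a median of -0.01, and Padi4 was at 0.94 with the mean of its probes. Tgm5 was well above background only with calcium, where it was 2.29-fold higher in -/- cells. Sprr1a, another bridge protein, had levels of 1.25, 5.31, 2.39 and 5.26 (-1.19), or -0.99 with quantile scaling, and involucrin (Ivl) was under 2-fold higher with calcium in both genotypes (0.49).

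Kallikreins and their inhibitors, which control shedding, responded to calcium strongly in both genotypes. The median response of 10 measured genes was 2.66 in +/+ and 2.71 in -/- cells, and 0 of the 10 had a response difference past 2-fold. Klk6 had levels of -4.16, 1.00, -1.54 and 2.79 and Klk7 of -3.57, 1.3, -1.72 and 2.44. Both were more than 2-fold higher in -/- cells on either medium, and their response differences were -0.83 and -0.71. On the linear scale the gain in signal was larger in -/- cells for both, by 4.64 and 2.74 times the 75th percentile, so the sign for these genes depends on the scale. Spink5, the inhibitor lost in Netherton syndrome, and cystatin Cst6 had response differences of -0.20 and -0.21.

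**Figure D3:**
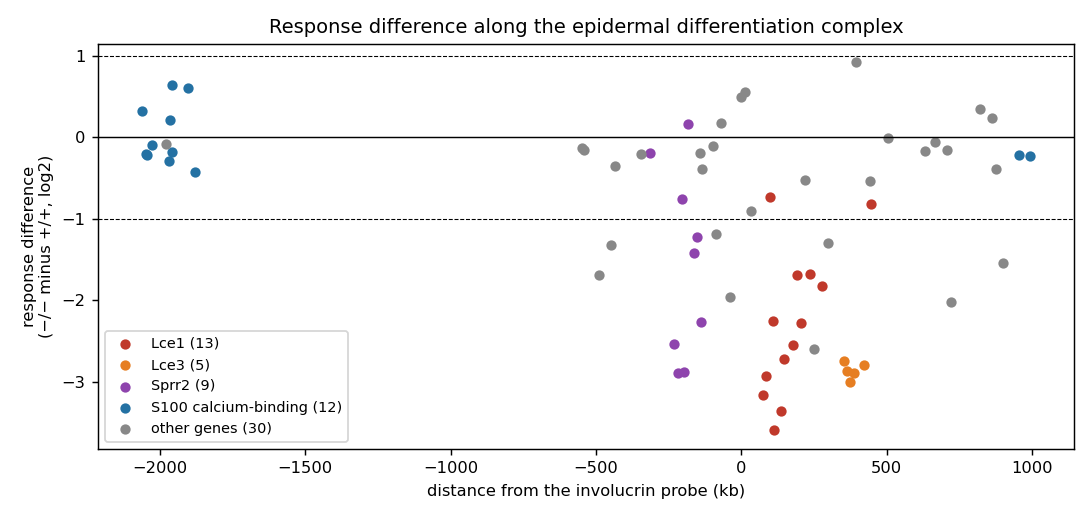
Response difference (vertical axis, log2, -/- minus +/+) of 69 measured genes of the epidermal differentiation complex against the distance of their probe from the involucrin probe (horizontal axis, kb). The dashed lines mark 2-fold; the Lce1, Lce3 and Sprr2 genes reach the lowest values, and the 12 S100 genes at both ends stay within 2-fold of 0.

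Position is no separate line of support, because the Lce1, Lce3 and Sprr2 genes reported above lie in this region. The probes of the complex span chromosome 3 from 90314959 to 93368496 (mm9), 3.05 Mb with 69 measured genes, of which 30 had a response difference at least 2-fold below 0 and 0 above, with a median of -0.53. These 30 make up 43.5% of the span and 24.8% of the 121 genes below 0, while the span holds 0.359% of measured genes. Of the 30, 11 were Lce1, 5 Lce3 and 6 Sprr2 genes, so most of them are counted here again. On the rest of chromosome 3, 0 of 864 measured genes were at least 2-fold below 0 and 14 were above. Within the span it was not a shared property of all genes: 0 of 12 S100 calcium-binding genes passed 2-fold (median -0.19). Beyond the families, the trichohyalin-like Tchhl1 had a response difference of -1.54, Prr9, a proline-rich gene not on any list, -1.32, and 2310046K23Rik, an unnamed transcript next to involucrin, -1.96. The last 2 were picked out after their values were seen.

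Genes outside the complex also had a smaller response in -/- cells, and they serve other functions. Hcar2, the receptor for niacin and beta-hydroxybutyrate, rose in +/+ cells only, with levels of -4.10, -1.29, -3.43 and -3.59 (response difference -2.98). Its other measured probe gave a response difference of -1.11. Endothelin 1 (Edn1), a peptide that keratinocytes send to melanocytes, had a 5.83-fold response in +/+ and a 1.28-fold response in -/- cells, with levels of -1.33, 1.22, -0.44 and -0.09. The skin calmodulin Calm4, at -3.03, 0.92, -1.17 and 0.55, and keratin 23 (Krt23), at -3.35, 0.91, -1.36 and 0.57, ended within 2-fold of +/+ cells and differed mainly in the untreated level, which was more than 3-fold higher in -/- cells. The epithelial ETS factors Ehf (-3.75, 0.79, -4.33 and -0.89) and Elf3 (-3.83, -2.22, -4.33 and -3.88) had response differences of -1.1 and -1.16, the only 2 of 29 differentiation transcription factors past 2-fold. Degs2, a ceramide hydroxylase of the lipid barrier, rose 6.21-fold in +/+ and 2.63-fold in -/- cells (-1.24). Elf3 was at -0.93 with normexp background correction and Ehf at -0.94 with the mean of its probes.

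The interleukin-36 genes are epidermal members of the interleukin-1 family, and only 1 of the 4 examined was well above background on every array. Il1f6, which encodes interleukin-36 alpha, was 25-fold higher with calcium in +/+ cells, with levels of -5.64 and -1.0. It was not well above background on either -/- array, so no response difference exists, and with calcium it was at least 40.9-fold lower in -/- cells. Il1f9 and Il1f8, the gamma and beta members, were 3.21-fold and 1.12-fold lower in -/- cells with calcium. Il1f5, the receptor antagonist of the same family, was measured on all 4 arrays at -4.60, -1.3, -3.66 and -2.10 and had a response difference of -1.73. Of the neutrophil chemokines, Cxcl1 had levels of -1.54, -0.97, -2.58 and -3.02 (-1.01) and Cxcl5 -1.12, -0.45, -3.16 and -3.56 (-1.07). Both were under 2-fold higher with calcium in +/+ cells and under 2-fold lower in -/- cells, and with normexp background correction their response differences were within 2-fold (-0.91 and -0.92).

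The 121 genes below 0 came from several patterns. In 40 of them calcium raised the gene at least 2-fold in both genotypes, in 40 in +/+ cells only, and in 9 it lowered the gene in -/- cells only (0.239% of all measured genes were at least 2-fold lower there). The other 32 passed 2-fold although both responses were under 2-fold. In 73 of the 121 (60.3%) the -/- level was above +/+ without calcium and below it with calcium, a pattern held by 5.82% of all measured genes. The cut itself favours this order, since the response difference is the genotype gap with calcium minus the gap without it. The 2 shares are therefore not a like comparison. The array of calcium-treated +/+ cells stood apart above the other 3 for 41 of the 121 (5.45% of all measured genes). A high level on that array also lowers the response difference, so the cut favours this pattern too.

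Genes above 0 were a different kind of set. Of 367, 79 were at least 2-fold higher with calcium in -/- cells, 8 of them in both genotypes. Another 58 were at least 2-fold lower in +/+ cells (0.619% of all measured genes were) and under 2-fold in -/- cells. For 230 (62.7%) both responses were under 2-fold. They were mostly dim: 256 of 367 lay in the dimmest 25% of genes, where 5.32% passed, and 5 in the brightest 25%, where 0.104% did, and the median response difference was 0.24 in the dimmest 25% and -0.08 in the brightest 25%. The share above 0 among all genes past 2-fold was 75.2%, and it was 63.2% with normexp background correction, 50.3% with quantile scaling and 51.5% with cyclic loess scaling. The split thus changed with the processing. Near the threshold of 2-fold, Mfap4 at 1.00 and H2bc8 at -1.01 lay just inside and 4930417O22Rik at 0.999 and Nccrp1 at -0.99 just outside.

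**Figure D4:**
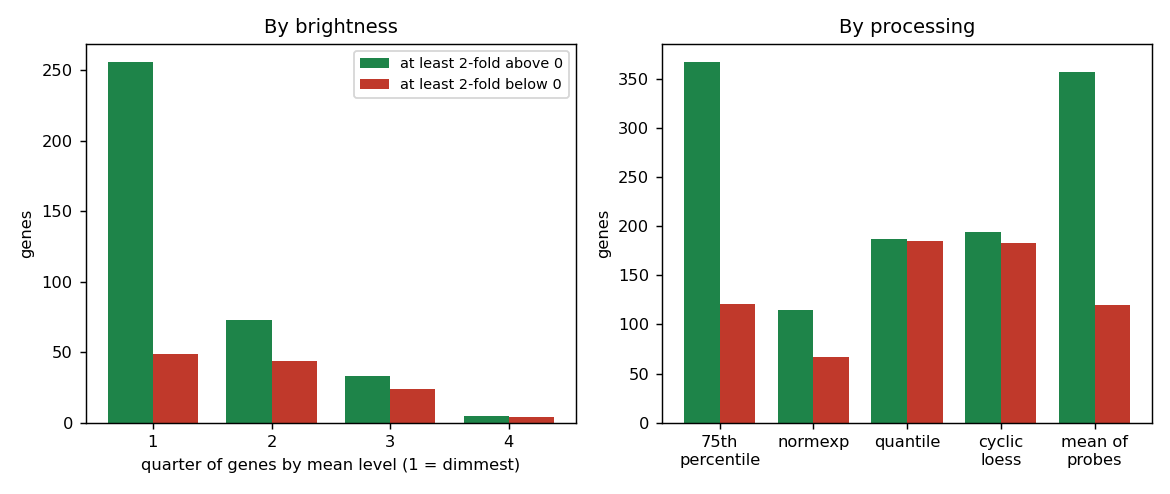
Left, number of genes with a response difference at least 2-fold above 0 or below 0 in each of 4 equal bins of genes by mean level; right, the same counts under 5 ways of processing. Genes above 0 number 256 in the dimmest bin and 5 in the brightest, and quantile and cyclic loess scaling give nearly equal counts on both sides.

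Reg1, a secreted C-type lectin of regenerating tissue, had the highest response difference of the named genes. Its levels were -4.21 and -4.22 in +/+ cells and -0.85 and 2.06 in -/- cells, level in one genotype and 7.52-fold higher with calcium in the other (2.92). Reg3g, an antibacterial lectin of the same family, had levels of -3.41, -4.34, -2.96 and -1.82 (2.07). Of 11 measured antimicrobial and Reg genes 3 were at least 2-fold above 0 and 0 below.

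CC chemokines, which draw monocytes and lymphocytes, were split. Ccl3 had levels of -3.91, -5.56, -1.78 and -0.53, so calcium lowered it in +/+ cells and raised it in -/- cells, each past 2-fold (2.90). Ccl9 had -2.57, -3.27, -1.26 and 0.17 (2.12), and Ccl6 1.18, -0.37, -0.48 and 0.40 (2.43). Ccl6 was the one of them that was higher in +/+ than in -/- cells without calcium. Of 10 measured CC chemokines 4 were at least 2-fold above 0 and 0 below (median 0.36), and Ccl2, among the brightest at 2.55, 3.21, 2.55 and 2.38, had -0.84. Ccl12 was well above background in -/- cells only, where it was 5.62-fold higher with calcium, and with calcium it was at least 25-fold higher than in +/+ cells.

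Macrophage and myeloid markers moved with these genes. Of 18 measured markers 16 had a response difference above 0 and 11 were at least 2-fold above, with a median of 1.14, made of responses of -0.50 in +/+ and 0.53 in -/- cells. Marco, a scavenger receptor of macrophages, had levels of -3.99, -4.55, -2.93 and -1.39 (2.10), Adgre1, the F4/80 antigen, -3.08, -4.01, -0.79 and 0.04 (1.76), and the mannose receptor Mrc1 -2.12, -2.57, 0.75 and 1.99 (1.69). Each was higher in -/- than in +/+ cells on both media, and the gap widened with calcium. Without calcium 15 of the 18 were at least 2-fold higher in -/- cells, and with calcium 16 were (5.77% of all measured genes). The summed level of the 20 markers on the array was 15.4, 10.9, 53.8 and 71.5; 18 of them were well above background on each +/+ array and 20 on each -/- array, so no defining marker was absent from -/- cells. The exceptions were Cd5l (-0.13), Cd14 (0.00) and Itgam (-0.72), whose mean over its probes was 0.19. In pooled RNA, fewer cells of a type and less RNA per cell cannot be told apart, and the part of these cells in the chemokine values was not tested.

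Markers of other cell types had smaller response differences. Mast cell markers were far higher in -/- cells on both media, with list medians of 3.04 and 3.71, and 0 of 9 had a response difference past 2-fold (median 0.43). So were adipocyte markers, with medians of 2.65 and 2.95 and 10 of 10 at least 2-fold higher on both media, and fibroblast markers by less, with medians of 0.76 and 1.03 and 3 and 12 of 19 at least 2-fold higher. The summed level of the mast cell markers was 1.58, 1.73, 11.9 and 11.7. None of 19 fibroblast markers had a response difference past 2-fold (median 0.27). All 11 melanocyte markers had a response difference below 0 (median -0.52) and 0 passed 2-fold. Their summed level was 43.8, 49.4, 46.6 and 38, and the lowest value was that of the melanosome protein Pmel, with levels of 1.58, 1.97, 2.21 and 1.61 (-0.99). Of 10 adipocyte markers all 10 were above 0 and 1, carbonic anhydrase 3 (Car3), passed 2-fold (1.13). The part of these cells in other results was not tested. The keratinocyte marker list had 0 of 12 genes past 2-fold and a median response difference of -0.10. On both media 0 of these 12 were higher in -/- cells, with medians of -0.25 without and -0.43 with calcium. Of all measured genes 30.8% and 34.4% were higher, with medians of -0.18 and -0.17. Other lists had this too: 0 of 27 ribosomal protein genes were higher on either medium, with medians of -0.12 and -0.29. What the lower keratinocyte markers mean for the Lce, Sprr2 and kallikrein values was not tested.

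**Figure D5:**
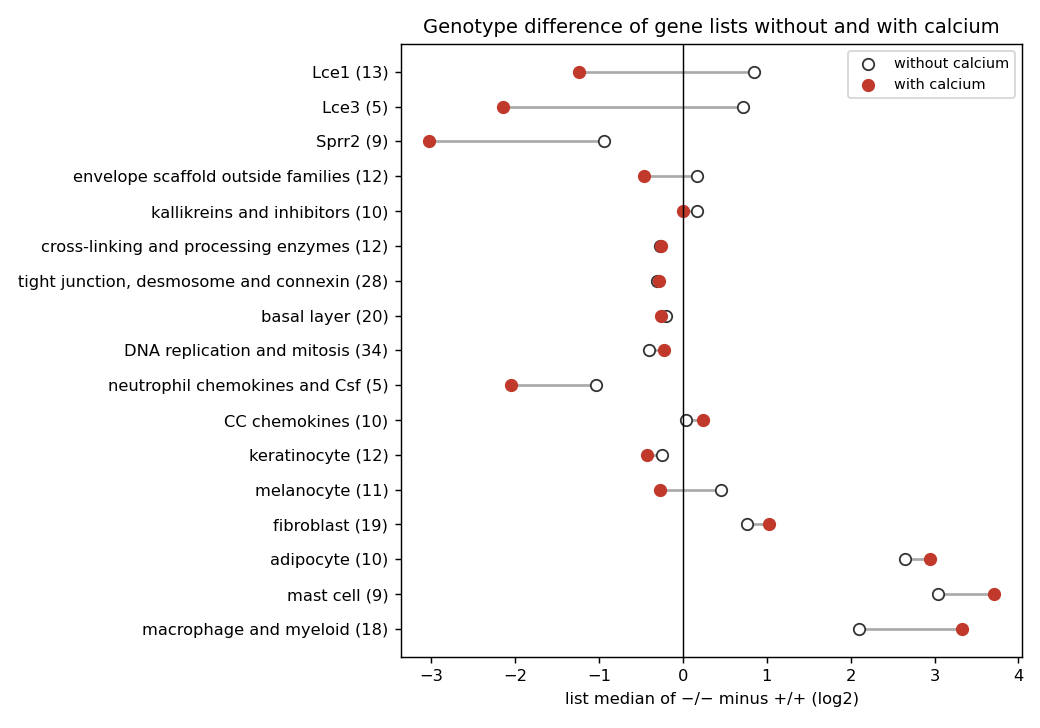
Median difference between genotypes (horizontal axis, log2, -/- minus +/+) of 17 gene lists without calcium (open circles) and with calcium (filled circles), with the number of measured members in brackets. The Lce1 and Lce3 medians cross 0, the Sprr2 median starts below 0 and goes lower, and the macrophage and myeloid median moves from 2.10 to 3.33.

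Some genes of other function lists responded more in -/- cells. Ly6g6e, a surface protein of the Ly6 family, had levels of -5.03, -2.70, -5.43 and -0.81, equal without calcium within 2-fold and 3.73-fold higher in -/- cells with it (2.30). Keratin 79 (Krt79), a keratin of the hair follicle canal, had -2.16, -0.74, -1.34 and 1.83 (1.76), and the proton pump subunit Atp6v1c2 -4.18, -1.33, -4.03 and 0.36 (1.54). Nrarp, a feedback inhibitor that Notch induces, had -4.40, -2.45, -4.61 and -1.28 (1.37), while 0 of the other 10 measured Notch genes passed 2-fold. Hey1 fell just short of 2-fold, at 0.9996. Crabp2, which carries retinoic acid to its receptor, was bright and had levels of 0.92, 1.79, 0.11 and 2.77 (1.79), the only 1 of 15 retinoic acid genes past 2-fold. Cyp4f39, which makes acylceramide precursors, had -5.42, -4.58, -6.36 and -4.02 (1.49), opposite to Degs2 in the barrier lipid list, whose median was -0.01. Amphiregulin (Areg), a ligand of the EGF receptor, had a 3.89-fold response in -/- and a 1.65-fold response in +/+ cells (1.24). Cyp4f39 was at 0.87 with normexp background correction and Areg at 0.97 with quantile scaling.

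Lipid mediators are the nearest to the enzyme itself. None of 13 measured phospholipase A2 genes passed 2-fold, and their response differences ran from -0.49 to 0.56. Of 30 eicosanoid and lysophospholipid genes 5 were at least 2-fold above 0 and 0 below, with a median of 0.22. With normexp background correction 3 of the 5 were within 2-fold, namely Alox12e (0.67), Alox5 (0.77) and Ptgfr (0.96), and Alox5 was so with quantile (0.89) and cyclic loess scaling (0.86) too. Lpar5, a receptor for lysophosphatidic acid, had levels of -3.24, -4.82, -5.00 and -4.72 (1.86), so that its value came from a high level in untreated +/+ cells. The epidermal lipoxygenase Alox12e (-5.06, -5.53, -6.20 and -5.25) had 1.42 from a low level in untreated -/- cells. Alox5ap, the helper of leukotriene synthesis found in myeloid and mast cells, had -2.97, -3.56, -0.65 and -0.10 (1.14). The part of those cells in this value was not tested.

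Most genes of DNA replication and mitosis had a small response difference of the same sign. Of 34 measured genes 31 had a response difference above 0, with a median of 0.24, against 53.1% above 0 and a median of 0.02 over all measured genes. The list was lower with calcium in +/+ cells (median -0.28) and level in -/- cells (0.01). Its median response difference of 0.24 is below the median scanner error of its members, 0.29. Cyclin A2 (Ccna2), with levels of -4.05, -4.49, -4.29 and -3.64 (1.1), was the only member past 2-fold, and with normexp background correction it was at 0.77. Ribosomal protein genes went the other way by less, 26 of 27 at or below 0 with a median of -0.17. Junction genes (28 genes, median 0.00), basal layer genes (20 genes, median -0.08) and cholesterol synthesis genes (24 genes, median -0.03) had 1, 0 and 0 members past 2-fold, the one being claudin 23 (Cldn23, 1.14, or 0.75 with normexp background correction).

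Where a gene past 2-fold had further measured probes, these had the same sign for 9 of 10 genes below 0 and 22 of 26 above, and all passed 2-fold for 4 and 6 of them. Over all genes with several measured probes 65.6% agreed in sign. With normexp background correction 115 genes were at least 2-fold above 0 and 67 below, and 113 and 66 of these are among the 367 and 121.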

How the data were processed

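The files hold scanner signals of 4 one-colour arrays. The authors obtained this intensity with Agilent Feature Extraction 11.5.1.1, per the submitters' processing notes, background subtracted and arrays left unscaled, per the file headers. The deposited value table is a linear ratio with no centring: each entry is the scanner signal over the 75th percentile of its array, to within 2.3e-07 of the value for all 44397 spots compared. Its column medians were 0.066, 0.0623, 0.0612 and 0.0645 for the arrays in the order of the report. The labelling reaction took 200 ng of RNA, per the labels.

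Outlier spots, 105 to 116 an array, were left out; saturated spots numbered 0. The 75th percentile of 43020 non-control spots was subtracted from the log2 signal of each array, and spots of a probe were averaged. The percentiles were 2638 to 3299 intensity units. Of 39426 probes 24828 were well above background on all 4 arrays; a gene was read from the brightest of these. Probe positions are those of mm9 in the files; 27507 probes were named through their accession and 11919 kept the file's name. Where a group was dim, a fold is a bound against the lowest signal well above background on that array or the gene's own value, whichever was higher.

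Nothing was tested, since each group is 1 array; counts are at 2-fold. The members, the 51 lists (863 entries, 10 not found), the rule for named genes and the alternatives were chosen with earlier results of these data known. Named genes are list members, the 25 highest and 25 lowest response differences whose probes agree in sign and whose symbol names neither a clone nor a model, the 5 farthest from 0 in each class of pattern, and Pla2g2f. Clone or model names in the text fall outside this rule and were chosen after their values were seen, as was Prr9. The steps were checked on simulated arrays with technical noise only. Promoters are the first start listed per gene in the RefSeq table. Software was Python 3.11.15 with numpy 2.4.6 and pandas 2.3.3, and R 4.3.3 with limma 3.58.1.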

Additional observations from a re-analysis of the deposited data

Results flagged for a closer look

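In 2 genes the calcium response was past 2-fold in both genotypes and went opposite ways, and the difference was not tested, since each group is 1 array. Ccl3 had responses of -1.65 in +/+ and 1.25 in -/- cells, a response difference of 2.90. The transcript 4930592A05Rik had responses of -1.14 and 1.31, a response difference of 2.45.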

How the results depend on the processing

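With 1 array per group no replicate could be left out and the spread between cultures is unknown, so values were set against the scanner error. No paired analysis was possible because each group has 1 array. The counts above and below 0 (367 and 121) were 115 and 67 with normexp background correction, 187 and 185 with quantile scaling, 194 and 183 with cyclic loess scaling, 3098 and 746 with every probe kept, and 38 and 28 among genes above the median level, where fewer genes were counted. They stayed within 1.5 times with scaling to the median of detected probes, the mean of a gene's probes and the authors' value table. The Lce1 median (-2.27) was -1.97 with normexp correction, and the Sprr2 median (-1.42) was -0.20 among genes above the median level. The Lce3, macrophage and mitosis medians moved by less than the scanner error under every alternative run on the log2 scale. For mitosis this says little, because its median of 0.24 is itself below the error of 0.29. A turn of sign was counted only where the main value was at least its scanner error, so turns of smaller values are not listed. Signs turned among genes above the median level for neutrophil chemokines (0.28), CC chemokines (-0.056) and mast cell markers (-0.048). On the linear scale they turned for kallikreins (0.0862), mast cell (-0.0271) and adipocyte markers (-0.767), and for Klk6 (4.64), Klk7 (2.74), Evpl (-1.08), Lypd3 (-0.252) and Cnn1 (0.0131), in multiples of the 75th percentile signal. With the mean of its probes the Itgam value was 0.19. Of 62 genes named for their rank or class, 54 remained past 2-fold in the same direction with normexp correction, and all 62 with quantile, cyclic loess and median scaling. Those under 2-fold with normexp correction were Frem1, Scn11a, Opn1mw, Slc16a9, Npr3, H2bu2, Sly and Wfdc6a. The cause of these changes was not tested.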

Other observations

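Further genes with a high response difference that belong to no list are given here, picked after their values were seen. Bcl2a1d, a survival gene of the Bcl2 family, had levels of -2.69, -3.94, -0.70 and 0.03 on the arrays in the order of the report (response difference 1.98), and Cd300c2, a receptor of myeloid cells, -3.52, -4.57, -1.14 and -0.41 (1.78). Ms4a6d, a membrane protein of macrophages, had -2.11, -2.82, 0.26 and 1.12 (1.56), and the chemokine Cxcl13, which draws B cells, -3.13, -3.96, -0.37 and 0.30 (1.49). All 4 were higher in -/- than in +/+ cells on both media. In +/+ cells their level with calcium was below the untreated level, and in -/- cells it was above. Their source was not tested.

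Il19 and Il20, cytokines of the interleukin-10 family made by keratinocytes, had levels of -3.84, -4.93, -5.16 and -4.70 (1.55) and of -4.38, -5.30, -6.10 and -5.59 (1.43). Both were at least 2-fold lower in -/- cells without calcium and within 2-fold with it, and Il20 was at 0.74 with normexp background correction. By contrast Depp1, a FoxO target gene, differed mainly with calcium, where it was 8.09-fold higher in -/- cells, and by less than 2-fold without. It rose with calcium in both genotypes, from -5.32 to -3.97 in +/+ and from -4.41 to -0.96 in -/- cells (2.10).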
